A study of Homo sapiens with 5 samples.

Results

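The 10 genes described here are those of the retinoblastoma (RB) pocket protein family and the DREAM complex: RB1, RBL1 and RBL2, the MuvB core genes LIN9, LIN37, LIN52, LIN54 and RBBP4, the RBBP4 paralogue RBBP7, and MYBL2. They were chosen by gene symbol, and each of the 10 symbols matched 1 of the 64252 gene identifiers in the deposited count table. All 10 passed the filter on low counts that left 15341 genes for testing. The table holds RNA-seq counts of RPE-1 cells, an immortalized human line of retinal pigment epithelium, collected 48 hr after siRNA transfection to follow gene expression upon FAM53C knock-down. The 3 control libraries (siCtrl, genotype WT by the labels) received an ON-TARGET control siRNA, and the 2 knock-down libraries (siFAM53C, genotype FAM53C KD) received a pool of siRNAs against FAM53C, each at 5 µM as the labels state. Both conditions share the cell line, the transfection with Lipofectamine RNAiMAX and the time, and the labels name no altered allele. The label for cell type reads epithelial cells, a pool of siRNAs was used rather than single ones, and nothing in the labels says whether replicates came from separate cultures, so p-values may measure technical spread only.

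RB and its relatives p107 (encoded by RBL1) and p130 (encoded by RBL2) bind E2F transcription factors through a shared pocket and hold cell cycle genes silent until cyclin-dependent kinases phosphorylate them. In G0 and early G1, p130 or p107 joins E2F4 or E2F5, a DP partner and the MuvB core to form the repressor DREAM, and phosphorylation of LIN52 by the kinase DYRK1A promotes this assembly. Later in the cell cycle the same MuvB core leaves the pocket protein and joins B-MYB, encoded by MYBL2, and then FOXM1, to activate genes needed for G2 and mitosis. RPE-1 cells carry a functional RB pathway, through which RB regulates the G1/S transition.

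Before the members, the knock-down and the libraries were checked. Total counts ranged from 19260124 to 25615415 per library. FAM53C (chromosome 5 of GRCh38) had 60.9, 59.7 and 57.6 CPM (counts relative to the TMM-scaled library total) in siCtrl and 14.2 and 22.3 CPM in siFAM53C. Its log2 fold change was -1.71 (SE 0.19, Benjamini-Hochberg adjusted p = 0.00363 in the edgeR quasi-likelihood fit). The first principal component carried 39.8% of the variance and set siFAM53C replicate 2 and siCtrl replicate 3 apart from siCtrl replicates 1 and 2, with siFAM53C replicate 1 between them. Differences are therefore also given within the sides of this split, which was known from earlier results of these data: siFAM53C replicate 1 against siCtrl replicates 1 and 2 (side 1), and siFAM53C replicate 2 against siCtrl replicate 3 (side 2). The placement of siFAM53C replicate 1 on side 1 was a choice, since it scored 0.26 on this component, against -31.5 and -47.4 for siCtrl replicates 1 and 2 and 33.7 for siCtrl replicate 3, and a fit with it on side 2 was added after seeing the data. siFAM53C replicate 2 carries the number 3 in the name of its column. Of the markers of retinal pigment epithelium, RPE65 was at 0 in every library and RLBP1 and TYR had at most 2 counts, whereas MITF had 713 to 1053 counts and OTX2 281 to 403. The epithelial keratins KRT8 and KRT18 were abundant, and CDH1, EPCAM and KRT19 had at most 5 counts. The summed level of the 7 pigment epithelium markers was 52.2 to 66.6 CPM in siCtrl and 49.4 to 60.6 CPM in siFAM53C, and that of the 6 epithelial markers 390 to 475 CPM and 508 to 509 CPM. The epithelial difference was mostly that of KRT8, with means of 259 CPM in siCtrl and 323 CPM in siFAM53C. Its log2 fold change was 0.32 (adjusted p = 0.222 in the edgeR fit). None of the 3 epithelial markers tested was called. Of 10 markers of other cell types, ALB and CD3E were at 0. The summed level of these 10 was 53.1 to 65.0 CPM in siCtrl and 92.9 to 97.3 CPM in siFAM53C, led by COL1A1 (log2 fold change 0.74, adjusted p = 0.0310) and PDGFRB (0.67, adjusted p = 0.0245), which fibroblast-like cells express. The part of these differences in the results below was not tested.

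Of the 10 genes, 1 was lower in siFAM53C in the edgeR fit at an adjusted p of 0.05, where 3.47% of all genes tested were lower. That gene was LIN54, which encodes the DNA-binding subunit of MuvB. None of the 10 was higher (0 at an unadjusted p under 0.05 and 0 by DESeq2), where 0.489% of all genes were higher by edgeR, 6.61% at the unadjusted threshold and 1.93% by DESeq2. At an unadjusted p under 0.05, 4 of the 10 were lower against 10.5% of all genes. These were LIN54, RBL1, LIN9 and RBBP7. By DESeq2, 2 of the 10 were lower, LIN54 and RBL1, against 6.74% of genes. With a term for the library split, the 4 genes just named were called lower and 0 higher, where 10.7% of all genes were lower and 6.76% higher. These calls rest on the placement of siFAM53C replicate 1: with it on side 2, 1 of the 10 was lower (LIN54) and 0 higher, where 4.47% of all genes were lower and 1.69% higher. The log2 fold changes of 8 of the 10 were below 0, with a median of -0.21, where 7391 of 15341 genes were below 0 and the median over all genes was 0.016. The median of the 10 was -0.25 on side 1 of the split and -0.26 on side 2. For 6 genes both siFAM53C libraries lay below every siCtrl library, a pattern found in 18.8% of all genes, and for 0 genes both lay above, a pattern found in 16.7%. In bulk RNA, fewer cells that express a gene and less of its RNA per cell cannot be told apart.

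**Figure D1:**
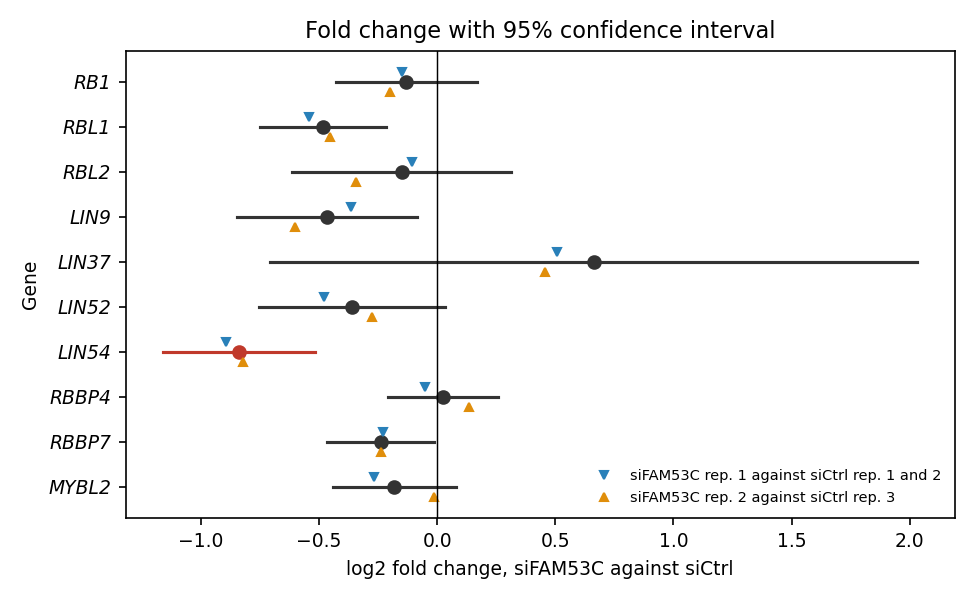
The log2 fold change of each gene in siFAM53C against siCtrl (x axis, log2 units) with its 95% confidence interval from edgeR (points and bars) is shown for the 10 genes (y axis), red marking the gene with an adjusted p under 0.05, and triangles the differences within the 2 sides of the library split. LIN54 lies farthest to the left at -0.84, and the interval of LIN37, the gene with the fewest counts, spans -0.71 to 2.03.

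LIN54 binds DNA at the cell cycle genes homology region (CHR), the promoter element through which MuvB reaches genes of G2 and mitosis. The gene (ENSG00000189308) lies on the minus strand of chromosome 4 of GRCh38, from 82909973 to 83012926, and shares no exon bases with another gene. It had 823, 617 and 699 counts in siCtrl and 477 and 487 in siFAM53C. In CPM this was 34.9, 32.3 and 36.6 in siCtrl and 18.0 and 20.7 in siFAM53C. Both siFAM53C libraries were below all siCtrl libraries, and the gap between the conditions was wider than the range within either. The means were 34.6 ± 2.19 CPM (SD, n = 3) and 19.3 ± 1.87 CPM (SD, n = 2). The log2 fold change was -0.84 (SE 0.14, 95% confidence interval -1.16 to -0.52, adjusted p = 0.0175 in the edgeR fit). The difference was -0.89 on side 1 and -0.82 on side 2. The direction was the same under all 15 alternatives, and the gene was called in 11 of them. The call was lost without siCtrl replicate 1 (log2 fold change -0.83, adjusted p = 0.0921), without siCtrl replicate 2 (-0.89, adjusted p = 0.0687), without siFAM53C replicate 1 (-0.75, adjusted p = 0.173) and without siFAM53C replicate 2 (-0.94, adjusted p = 0.0782).

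The 3' UTRs of LIN54 and LIN52, and of no other gene of the 10, hold the heptamer GACAAGA, which an earlier look at these data had picked because genes with it were lower in siFAM53C. The 30 bases around each site are shown because LIN54 is the gene that passed the test, and LIN52 is the other holder. They were read from the GENCODE 44 transcripts on GRCh38, at chr4:82926589-82926618 (minus strand) for LIN54 and chr14:74199768-74199797 (plus strand) for LIN52, with the heptamer in capitals.
LIN54: cttgattttatGACAAGAaaaaaccatgtt
LIN52: atagcctgaaaGACAAGAgaaacgggatgg
The heptamer occurs in the 3' UTR of 11.6% of 12075 tested genes with one. Of the 1400 genes that hold it, 15.1% were called lower, with a median log2 fold change of -0.18. Of the 10675 genes without it, 2.92% were called lower, with a median of 0.020. Because the heptamer was picked on these libraries, these shares are a description, and its part in the value of LIN54 was not tested. RBL1, LIN9 and RBBP7, the other genes at an unadjusted p under 0.05, do not hold it. The 3' UTR of FAM53C, the gene that the siRNA pool targets, holds 1 site.

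Among the pocket proteins, RBL1 had the lowest log2 fold change. RBL1 (ENSG00000080839, chromosome 20, 36996349 to 37095997, minus strand) encodes p107, the family member made mainly by cycling cells. Its libraries had 55.1, 52.8 and 57.4 CPM in siCtrl and 37.0 and 41.8 CPM in siFAM53C. Both siFAM53C values were below all siCtrl values, and the siCtrl libraries spanned only 0.12 on the log2 scale. The means were 55.1 ± 2.28 CPM (SD, n = 3) and 39.4 ± 3.40 CPM (SD, n = 2). The log2 fold change was -0.48 (SE 0.11, 95% confidence interval -0.75 to -0.22, adjusted p = 0.0659 in the edgeR fit), which did not pass the threshold. On side 1 it was -0.54 and on side 2 -0.46. RBL1 was called lower in 5 of 15 alternatives, among them DESeq2 (adjusted p = 0.0194), the term for the library split (adjusted p = 0.00173, but 0.05003 with siFAM53C replicate 1 on side 2) and the fit without siCtrl replicate 3 (adjusted p = 0.0432).

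RB1 (ENSG00000139687, chromosome 13, 48303744 to 48599436, plus strand), which encodes RB itself, had 147, 150 and 178 CPM in siCtrl and 134 and 155 CPM in siFAM53C. The conditions overlapped, with siFAM53C replicate 2 above 2 of the siCtrl libraries. Its log2 fold change was -0.13 (SE 0.13, adjusted p = 0.686). RBL2 (ENSG00000103479, chromosome 16, 53433977 to 53491648, plus strand) encodes p130, the pocket protein of DREAM in resting cells. Its values were 39.5, 36.8 and 55.5 CPM in siCtrl and 35.3 and 43.8 CPM in siFAM53C. The siCtrl libraries spanned 0.59 on the log2 scale, with siCtrl replicate 3 highest, so the log2 fold change of -0.15 (SE 0.20, 95% confidence interval -0.61 to 0.31, adjusted p = 0.779) was smaller than the range among controls. Of the 8110 exon bases of RBL2, 1330 lie opposite other genes. The main one, AKTIP, had a log2 fold change of 0.027, and whether the counting used strand is not given in the sources used here.

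Ratios between pairs of members within a library depend little on how libraries were scaled. The log2 ratio of RBL1 to RB1 was -1.41, -1.50 and -1.63 in siCtrl and -1.85 and -1.89 in siFAM53C. Both siFAM53C libraries were below all siCtrl libraries. The difference of -0.35 had an exact two-sided permutation p of 0.2, the smaller one-sided p doubled, which is the smallest that 10 assignments of 5 libraries allow in this form, and 0.6 after Benjamini-Hochberg adjustment over the 6 pairs compared. The ratio of RBL2 to RBL1 was -0.48, -0.52 and -0.047 in siCtrl and -0.066 and 0.067 in siFAM53C, so that siCtrl replicate 3 overlapped the knock-down libraries (difference 0.35, exact permutation p = 0.4, adjusted 0.6). That of RBL2 to RB1 differed by -0.0056 (exact permutation p = 1). As a share of the summed TPM (counts per exon length, scaled to a fixed library sum) of the pocket proteins, RBL1 took 23.7 ± 1.66% in siCtrl (SD, n = 3) and 19.5 ± 0.409% in siFAM53C (SD, n = 2). RB1 took 62.6 ± 0.842% and 66.1 ± 0.229%, and RBL2 13.7 ± 1.63% and 14.3 ± 0.638%. The share of RB1 was thus higher, and that of RBL1 lower, in both knock-down libraries than in any control. Shares of a fixed sum are not independent of each other, and no test was run on them. RB1 itself was not higher, with a mean of 96.9 TPM in siCtrl and 91.7 TPM in siFAM53C.

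**Figure D2:**
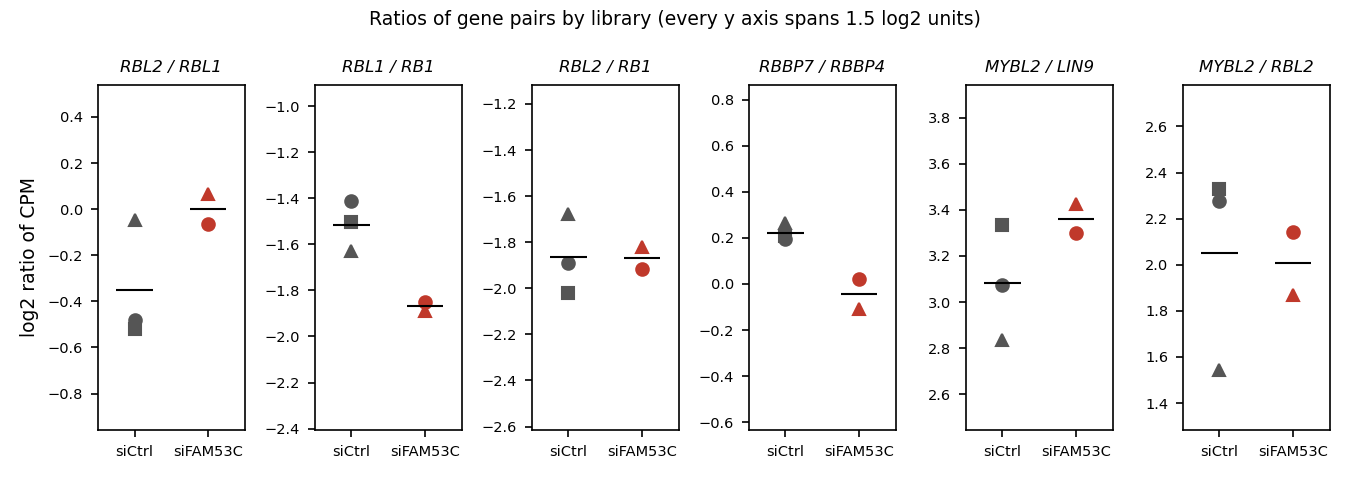
Each panel shows the log2 ratio of the CPM of 2 genes (y axis, log2 units) in the 3 siCtrl libraries (grey) and the 2 siFAM53C libraries (red), with circles for replicate 1, squares for siCtrl replicate 2, triangles for siCtrl replicate 3 and siFAM53C replicate 2, and lines at the mean. The conditions are apart for RBL1 to RB1 (difference -0.35) and RBBP7 to RBBP4 (difference -0.26), and overlap for the other 4 pairs.

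The MuvB core joins LIN54 to LIN9, a scaffold subunit, LIN52, which contacts the pocket protein or B-MYB, LIN37, which is needed for repression, and the histone-binding protein RBBP4. LIN9 (ENSG00000183814, chromosome 1, 226231149 to 226309869, minus strand) had 22.7, 18.3 and 22.6 CPM in siCtrl and 15.8 and 14.9 CPM in siFAM53C. Both siFAM53C libraries were below all siCtrl libraries, the nearest of which was siCtrl replicate 2. The log2 fold change was -0.47 (SE 0.16, 95% confidence interval -0.85 to -0.087) and did not pass the threshold (adjusted p = 0.203 in the edgeR fit). With the term for the library split it passed (adjusted p = 0.0389), and with siFAM53C replicate 1 on side 2 it did not (adjusted p = 0.156). The differences were -0.36 on side 1 and -0.60 on side 2.

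LIN52 (ENSG00000205659, chromosome 14, 74084956 to 74201493, plus strand), the substrate of DYRK1A in this complex, had 15.3, 15.02 and 16.0 CPM in siCtrl and 10.8 and 13.2 CPM in siFAM53C. The conditions did not overlap, and the siFAM53C libraries differed from each other by more than the siCtrl libraries did. Its log2 fold change was -0.36 (SE 0.17, 95% confidence interval -0.75 to 0.034, adjusted p = 0.336). LIN37 (ENSG00000267796, chromosome 19, 35748361 to 35754519, plus strand) was near the limit of detection, with 17, 9 and 22 counts in siCtrl and 23 and 38 in siFAM53C. These overlapped, and the log2 fold change of 0.66 (SE 0.59, 95% confidence interval -0.71 to 2.03, adjusted p = 0.648) leaves room for a change in either direction. Of its 2820 exon bases, 1298 are its own. The other bases are shared with ENSG00000267439 on the opposite strand and ENSG00000188223 on the same strand, both at 0 counts in every library, and how reads on shared bases were assigned is not given in the sources used here.

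RBBP4 and RBBP7 encode closely related WD40 proteins that bind histones. RBBP4 serves in MuvB, and both serve in the Polycomb repressive complex PRC2 and in histone deacetylase complexes. RBBP4 (ENSG00000162521, chromosome 1, 32651142 to 32686211, plus strand) had 182, 187 and 173 CPM in siCtrl and 178 and 190 CPM in siFAM53C. These values overlapped, and the log2 fold change of 0.025 had a 95% confidence interval of -0.21 to 0.26 (adjusted p = 0.939). The annotation names 7 pseudogenes of RBBP4, and 2160 of its exon bases lie opposite SYNC, so its level is uncertain to the extent that reads were shared. RBBP7 (ENSG00000102054, chromosome X, 16839283 to 16870362, minus strand) had 208, 216 and 207 CPM in siCtrl and 181 and 176 CPM in siFAM53C. Both siFAM53C libraries were below all siCtrl libraries, which spanned 0.059 on the log2 scale, the narrowest range of the 10 genes. The log2 fold change was -0.24 (SE 0.098, 95% confidence interval -0.47 to -0.013). This did not pass over all genes (adjusted p = 0.265 in the edgeR fit) and did with the term for the library split (adjusted p = 0.0482), but not with siFAM53C replicate 1 on side 2 (adjusted p = 0.353).

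Within a library, the log2 ratio of RBBP7 to RBBP4 was 0.19, 0.21 and 0.26 in siCtrl and 0.022 and -0.11 in siFAM53C. The knock-down libraries were both below the controls, a difference of -0.26 (exact permutation p = 0.2, the smallest possible in this form, adjusted 0.6). RBBP4 accordingly took 40.4, 40.2 and 39.2% of the summed TPM of the pair in siCtrl and 43.3 and 45.5% in siFAM53C. In the sum of LIN9, LIN52 and LIN54, a grouping chosen after the values were seen, LIN54 took 36.1, 37.2 and 36.8% in siCtrl and 29.3 and 30.9% in siFAM53C. The share of LIN54 was lower in both knock-down libraries than in any control, and no test was run on it.

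MYBL2 (ENSG00000101057, chromosome 20, 43667019 to 43716495, plus strand) encodes B-MYB, the partner that MuvB takes up once cells enter S phase, and is itself a target of DREAM. It had 192, 185 and 162 CPM in siCtrl and 156 and 160 CPM in siFAM53C. The siFAM53C values were below the lowest control, siCtrl replicate 3, by a margin smaller than the range of the controls. Its log2 fold change was -0.18 (SE 0.11, 95% confidence interval -0.44 to 0.080, adjusted p = 0.481). The difference was -0.27 within side 1 of the library split and -0.013 within side 2. The log2 ratio of MYBL2 to LIN9 was 3.07, 3.33 and 2.84 in siCtrl and 3.30 and 3.42 in siFAM53C, which overlapped (difference 0.28, exact permutation p = 0.4, adjusted 0.6). The ratio of MYBL2 to RBL2, the activator partner to the repressor partner of MuvB, differed by -0.043 (exact permutation p = 1) and overlapped as well.

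Levels between genes were compared as TPM, with the summed exon length of GENCODE 44. In siCtrl, MYBL2 was the highest at 254 ± 17.4 TPM (SD, n = 3), apart from the next gene in all libraries. RBBP7 at 113 ± 1.70 TPM and RB1 at 96.9 ± 12.9 TPM followed with overlapping ranges, and then RBBP4 at 75.1 ± 1.18 TPM and RBL1 at 36.4 ± 2.41 TPM, each apart from its neighbours. The ranges of RBL2 (21.4 ± 5.50 TPM), LIN54 (20.2 ± 1.75 TPM), LIN9 (18.8 ± 2.58 TPM) and LIN52 (16.0 ± 0.919 TPM) overlapped from each gene to the next, so their order was not resolved. LIN37 was the lowest at 1.10 ± 0.512 TPM. In siFAM53C the order of the other genes was the same, and LIN54 moved from place 7 to place 9, with a mean of 11.7 TPM below LIN9 (14.1 TPM) and LIN52 (13.0 TPM). With the length of the longest transcript in place of the summed exons, LIN9 and LIN54 changed places in siCtrl.

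**Figure D3:**
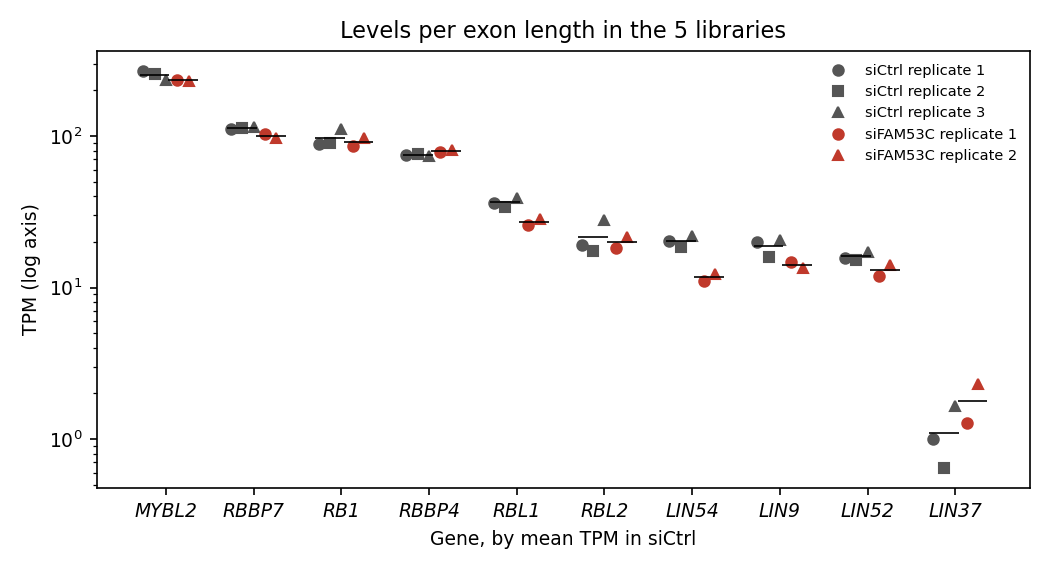
TPM (y axis, log scale) of the 10 genes (x axis, ordered by their mean in siCtrl) is shown in each siCtrl library (grey) and siFAM53C library (red), with circles, squares and triangles for replicates and lines at the mean. MYBL2 lies highest at a mean of 254 TPM in siCtrl and LIN37 lowest at 1.10 TPM, and the red points of LIN54 (mean 11.7 TPM) lie below all its grey points (mean 20.2 TPM).

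Promoters of the 10 genes were searched for the elements through which these complexes bind DNA, since several of the genes are themselves expressed with the cell cycle. The RefSeq windows on GRCh38.p14, from 250 bases before to 50 bases after each start site, were found for all 10. The E2F letters TTTGGCGC, TTTCCCGC and TTCCCGCC (the last can overlap the one before it by 7 bases, as it does in LIN52) and the CHR letters TTTGAA and TTCGAA were searched on both strands. E2F letters were found in RBL1 and LIN52, and CHR letters in RBL2, LIN9, LIN37 and LIN54. No match was found in RB1, RBBP4, RBBP7 or MYBL2. MYBL2, given above as a target of DREAM, is thus among the genes without a match. Several of the genes have more than 1 listed window, and RBL2, LIN9 and LIN37 each also have a window without a match. The match in RBL2 lies after the start site. Of 34796 distinct promoters, 4.59% hold one of the E2F forms and 16.4% one of the CHR forms. These shares are per window, so a gene with several windows has more room for a match than they state. TTTGGCGC is in 0.652% of promoters, TTTCCCGC in 1.63%, TTCCCGCC in 3.15%, TTTGAA in 15.2% and TTCGAA in 1.45%. The 30 bases around 1 match are shown for each of the 4 genes among LIN54, RBL1, LIN9 and LIN52, the genes of the family with the lowest fold changes, with the matched letters in capitals. They lie at chr20:37095998-37096027 (minus strand) for RBL1, chr14:74084926-74084955 (plus strand) for LIN52, chr1:226309207-226309236 (minus strand) for LIN9 and chr4:83010906-83010935 (minus strand) for LIN54.
RBL1: agattttcgcgcgcTTTGGCGCaggtggtt
LIN52: ctcgtTTTCCCGCCgacggttggccacgtc
LIN9: gcgagctccgcaTTCGAAcctccctcgcaa
LIN54: ggcccttgtgcgTTTGAAggttggcggggc
The match begins 16 bases before the start site in RBL1, 25 in LIN52, 60 in LIN9, and 100 or 89 in LIN54, which has 2 listed start sites. The same window of LIN9 also holds TTTGAA, 3 bases before the start site. The stretch of RBL1 lies in an exon of ENSG00000269846 on the opposite strand, that of LIN9 in an exon of longer LIN9 transcripts, and that of LIN54 in an intron of longer LIN54 transcripts. A match describes letters in the window and not binding. The window listed for RB1 begins inside the gene and does not cover its first start site.

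The partners of the 10 genes in the repressor and activator complexes were examined as a list of 9 genes. This list and those below were drawn up from background knowledge, and a few genes stand in more than 1 of them. In the edgeR fit 0 were lower and 0 higher (0 and 0 at an unadjusted p under 0.05, and 0 and 0 by DESeq2), and their median log2 fold change was -0.048. Of all genes 3.47% were lower and 0.489% higher by edgeR, 10.5% and 6.61% at the unadjusted threshold, and 6.74% and 1.93% by DESeq2. With the term for the library split 0 were lower and 0 higher, against 10.7% and 6.76% of all genes. With siFAM53C replicate 1 on side 2, 0 were lower and 1 higher, against 4.47% and 1.69%. DYRK1A had 69.0, 73.8 and 84.6 CPM in siCtrl and 69.7 and 69.0 CPM in siFAM53C. These values overlapped, and the estimate of -0.13 (log2, SE 0.12) did not pass (adjusted p = 0.668). E2F4, the E2F most common in DREAM, had 91.6, 68.2 and 73.9 CPM in siCtrl and 91.9 and 92.5 CPM in siFAM53C (log2 fold change 0.24, SE 0.14, adjusted p = 0.442). The siFAM53C libraries lay just above siCtrl replicate 1. E2F5 (-0.28, adjusted p = 0.579), the DP genes TFDP1 (-0.17, adjusted p = 0.551) and TFDP2 (-0.42, adjusted p = 0.682), and FOXM1 (-0.048, adjusted p = 0.902) had log2 fold changes that did not pass. DCAF7, a scaffold that binds DYRK1A, had a value of 0.15 (adjusted p = 0.531), with both siFAM53C libraries above the controls.

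Of 20 genes that set the phosphorylation of pocket proteins or are activator E2Fs, 19 were tested. By edgeR 2 were lower and 2 higher, against 3.47% and 0.489% of all genes, with a median log2 fold change of 0.061. At an unadjusted p under 0.05, 3 were lower and 6 higher, against 10.5% and 6.61%. By DESeq2 2 were lower and 3 higher, against 6.74% and 1.93%. With the term for the library split 4 were lower and 5 higher, against 10.7% and 6.76%. With siFAM53C replicate 1 on side 2, 2 were lower and 2 higher, against 4.47% and 1.69%. CDK6, a kinase that phosphorylates RB with D-type cyclins, had 142, 155 and 235 CPM in siCtrl and 46.3 and 56.7 CPM in siFAM53C. CDK6 fell by 1.78 in log2 units (SE 0.24, adjusted p = 0.00976). PPP1CC, a catalytic subunit of the phosphatase that dephosphorylates RB, fell by 0.55 (SE 0.11, adjusted p = 0.0302), from 254 ± 14.2 CPM (SD, n = 3) to 173 ± 1.38 CPM (SD, n = 2). Thus a kinase and a phosphatase gene acting on RB were both lower. CDKN2B, which encodes the CDK4 and CDK6 inhibitor p15, rose by 1.01 (SE 0.18, adjusted p = 0.0229), from 9.25 ± 1.14 CPM to 18.6 ± 0.906 CPM. The activator E2F2 rose by 0.83 (SE 0.13, adjusted p = 0.0126), from 18.9 ± 0.310 CPM to 33.6 ± 1.02 CPM. In each of these 4 genes the conditions did not overlap, and the 3' UTR of CDK6 holds the heptamer given above. Of the other genes named from the lists, it is also in those of HDAC2, BPTF and RBBP9 and of DYRK1A and TFDP2. None of these passed in the edgeR fit. By DESeq2, HDAC2 (adjusted p = 0.0125) and BPTF (adjusted p = 0.0257) passed as lower. With the edgeR term for the library split, HDAC2 (adjusted p = 0.00202), BPTF (adjusted p = 0.000764) and RBBP9 (adjusted p = 0.00878) did, and DYRK1A and TFDP2 passed in neither. The rest of the genes named from the lists do not hold the heptamer. Among them are PPP1CC and, named below, DTL, FEN1 and UHRF1, which were called lower by edgeR. The heptamer was picked on these libraries, and most list genes were named for small p-values in them. These matches are therefore a description only. Without siCtrl replicate 1, 1 gene of this list was lower and 0 higher, where 209 and 9 of all 14876 genes tested were. Without siCtrl replicate 2, 1 was lower and 0 higher, where 180 and 6 of 15195 were. Without siCtrl replicate 3, 3 were lower and 2 higher, where 886 and 414 of 14986 were. Calls were also fewer with either siFAM53C library left out, in this list and over all genes.

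Genes that the complexes bind were examined in 2 lists of 30, all tested. Among genes with E2F sites, which act in DNA replication, 3 were lower and 0 higher by edgeR (7 and 1 at an unadjusted p under 0.05, 3 and 0 by DESeq2). Over all genes 3.47% were lower and 0.489% higher by edgeR, 10.5% and 6.61% at the unadjusted threshold, and 6.74% and 1.93% by DESeq2. Of the 30 log2 fold changes 24 were below 0, against 7391 of 15341 over all genes, and their median was -0.15. The genes that fell were DTL, a substrate receptor of a ubiquitin ligase of S phase (-0.76, SE 0.10, adjusted p = 0.006995), FEN1, a flap endonuclease (-0.97, SE 0.14, adjusted p = 0.0124), and UHRF1, which maintains DNA methylation (-0.61, SE 0.10, adjusted p = 0.0206). Their libraries did not overlap between conditions. Without siCtrl replicate 1, 1 gene of this list was lower, where 209 of all 14876 genes tested were. Without siCtrl replicate 2, 0 were lower, where 180 of 15195 were. Without siCtrl replicate 3, 5 were lower, where 886 of 14986 were. Lower calls were also fewer with either siFAM53C library left out, in this list and over all genes. Among genes with CHR sites, which act in mitosis, 0 were lower and 0 higher by edgeR (4 and 0 at an unadjusted p under 0.05, 2 and 0 by DESeq2), whereas 29 of the 30 log2 fold changes were below 0 and their median was -0.16. With the term for the library split 12 of them were lower and 0 higher, and 7 and 1 of the genes with E2F sites, where 10.7% of all genes were lower and 6.76% higher. With siFAM53C replicate 1 on side 2 these counts were 3 and 0 for each list, where 4.47% and 1.69% of all genes were called. The lowest p-values belonged to BIRC5, which encodes survivin (-0.47, SE 0.12, adjusted p = 0.0794), and TPX2, a spindle assembly factor (-0.40, SE 0.12, adjusted p = 0.140). On side 1 the E2F list had a median of -0.17 and the CHR list one of -0.22, and on side 2 these were -0.078 and -0.21.

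The complexes that RBBP4 and RBBP7 share with other proteins were represented by 23 genes, of which 0 were lower and 0 higher by edgeR (3 and 1 at an unadjusted p under 0.05, 2 and 0 by DESeq2). Their median log2 fold change was -0.024. The lowest p-values were those of HDAC2, a histone deacetylase (-0.42, SE 0.11, adjusted p = 0.0783), and BPTF, a subunit of the NURF remodelling complex (-0.55, SE 0.15, adjusted p = 0.103). Of 7 further genes whose products bind RB, 0 were lower and 0 higher by edgeR (2 and 0 at an unadjusted p under 0.05, 1 and 0 by DESeq2), with a median of 0.048. RBBP8, which acts in DNA end resection, had a value of -0.45 (SE 0.12, adjusted p = 0.0897), and RBBP9, a serine hydrolase, one of -0.51 (SE 0.15, adjusted p = 0.118). Over all genes 3.47% were lower and 0.489% higher by edgeR, 10.5% and 6.61% at the unadjusted threshold, and 6.74% and 1.93% by DESeq2. With the term for the library split, 3 of the 23 were lower and 1 higher, and 3 of the 7 were lower and 0 higher. Of all genes 10.7% were lower and 6.76% higher in that fit. With siFAM53C replicate 1 on side 2, 1 gene of each list was lower and 0 higher, where 4.47% and 1.69% of all genes were called.

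**Figure D4:**
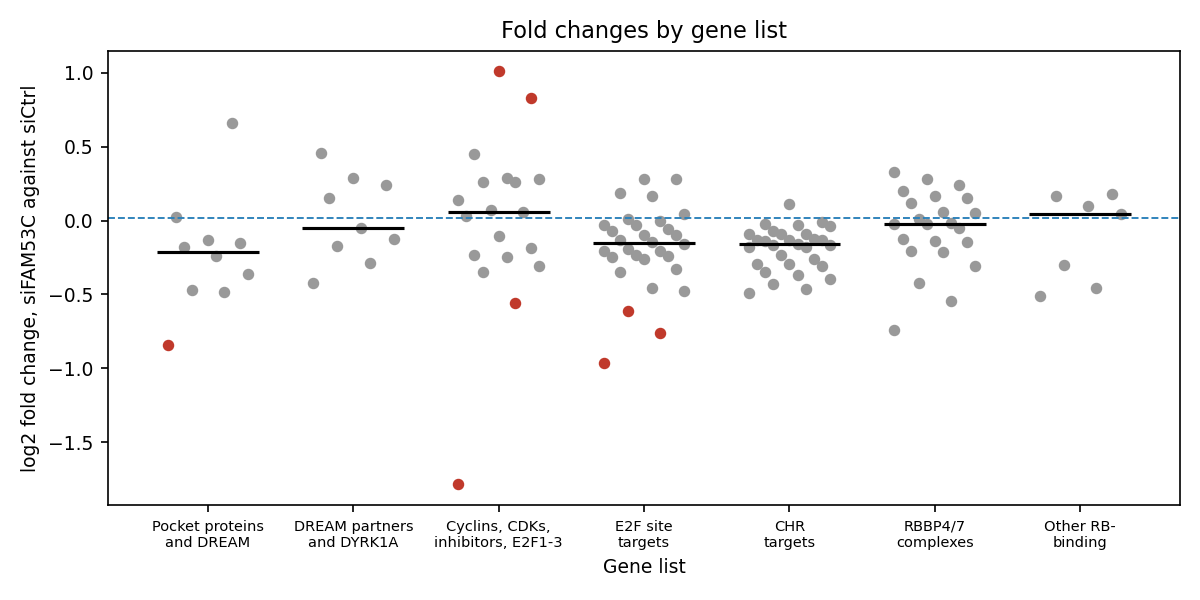
The log2 fold change of siFAM53C against siCtrl (y axis, log2 units) is shown for every tested gene of each list (x axis), red marking an adjusted p under 0.05, black lines the list medians and the dashed line the median over all genes tested (0.016). The pocket protein and DREAM genes have a median of -0.21, the genes with E2F sites -0.15 and the genes with CHR sites -0.16, and CDK6 is the lowest point at -1.78.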

How the data were processed

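Per the study's methods, paired reads were trimmed (cutadapt 2.10), mapped to hg38 by HISAT2 in its reverse-stranded mode and assigned to genes by featureCounts. The values the authors deposited are raw counts with no normalization. Whether counting used strand, and the annotation release, are not given in the sources used here. The labels list the mouse build mm10 beside hg38, and the methods give duplicates, where 3 siCtrl libraries were deposited and used. Each column was matched to a sample by its name, and the sample titled replicate 2 of siFAM53C has a column numbered 3. Symbols and positions come from GENCODE 44 on GRCh38, which named 56105 of 64252 identifiers.

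From these counts, genes were filtered by filterByExpr (minimum count 10, minimum total 15) and scaled by TMM factors, and conditions were compared in edgeR 4.0.16 (R 4.3.3) by the quasi-likelihood test with a robust prior and Benjamini-Hochberg adjustment over all genes tested, at 0.05. CPM are relative to scaled library totals, and log2 CPM for ratios used a prior count of 2. TPM used summed exon lengths. Library totals of 19260124 to 25615415 counts limit the precision for genes with few counts. Scripts were tested on simulated counts.

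Named were all 10 members, FAM53C, DYRK1A, E2F4, E2F5, TFDP1, TFDP2 and FOXM1, and from each list the called genes (at most 4) or, where none was called, the 2 with the smallest p. Genes most alike in pattern were not sought, because 5 libraries are too few for a correlation. The members and lists were chosen with earlier results of these data known. Alternatives were DESeq2 1.42.0, other scalings and filters, a prior count of 0.5, a replicate block, a term for the library split and each library left out. A fit without the robust prior, and one with the split term and siFAM53C replicate 1 on side 2, were added after seeing the data.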

Additional observations from a re-analysis of the deposited data

How the results depend on the processing

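In the main comparison 533 genes were lower and 75 higher, so that 87.7% of called genes were lower. Lower and higher genes numbered 415 and 121 (77.4% lower) with library totals only, 888 and 254 (77.8%) by DESeq2, 961 and 375 (71.9%) when no gene was filtered out, 856 and 355 (70.7%) with a replicate block by titles, 1350 and 642 (67.8%) with a replicate block by column names, and 1636 and 1037 (61.2%) with the term for the library split, or 686 and 259 (72.6%) with siFAM53C replicate 1 on side 2. Leaving out each library in turn gave 157 to 886 lower and 6 to 414 higher genes, with the lowest numbers of lower genes without siFAM53C replicate 1 and of higher genes without siCtrl replicate 2, and the highest of both without siCtrl replicate 3. Where a siFAM53C library was left out, the other was assumed to vary like the siCtrl libraries. Without the robust prior they numbered 493 and 62. The cause of these differences was not tested.

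Of the 10 genes, 1 was lower in the main comparison, 2 by DESeq2 and with no filter (LIN54 and RBL1), 3 with a replicate block by column names (LIN54, RBL1 and LIN9), 4 with the term for the library split, 1 with siFAM53C replicate 1 on side 2, and 0 to 2 with a library left out. Over all genes tested, 533 of 15341 were lower in the main comparison, 888 of 13181 by DESeq2 and 961 of 26587 with no filter. With the replicate block by column names, 1350 of 15341 were lower. Under this block by column names the edgeR adjusted p was 0.00535 for RBL1 and 0.0184 for LIN9. Same-numbered samples correlated in their deviations by 0.169 for number 1, by -0.285 for number 2 by titles and by 0.371 for number 3 by column names. The deviations of the 2 siFAM53C libraries from their mean mirror each other, so each value returns with its sign reversed for the other library. For siCtrl replicate 2 and siFAM53C replicate 1, which differ in number, it was 0.285. These values therefore cannot decide a pairing. The column names give only 2 pairs and the labels name no shared batch, so the samples were taken to share only a number. The direction of RBL2 (log2 fold change -0.15) and RBBP4 (0.025) was not settled: with a replicate block by titles they were 0.045 and -0.0067, and with a library left out -0.32 to 0.060 and -0.023 to 0.064. The difference in the ratio of RBL2 to RB1 ran from -0.085 to 0.087 and that of MYBL2 to RBL2 from -0.30 to 0.097 with a library left out. The other 8 genes and the other 4 ratios kept their direction in every alternative run for them, and a prior count of 0.5 reversed no ratio. Some of these values moved by over 1.5 times: RB1 (-0.13) was -0.030 without siCtrl replicate 3, -0.034 without siFAM53C replicate 1 and -0.24 without siFAM53C replicate 2, and LIN37 (0.66) was 0.41 without siCtrl replicate 2, 1.04 without siCtrl replicate 3, 1.04 without siFAM53C replicate 1 and 0.15 without siFAM53C replicate 2. LIN52 (-0.36) was -0.23 without siFAM53C replicate 1, and the MYBL2 to LIN9 difference (0.28) was 0.16 without siCtrl replicate 3. Scaling and blocking moved values as well. With library totals only, RB1 was -0.061 and MYBL2 (-0.18) was -0.11. With a replicate block by titles RB1 was -0.042 and LIN37 0.99, and with one by column names LIN37 was 0.38. With siFAM53C replicate 1 on side 2, RB1 was -0.30, RBL2 -0.49, LIN37 0.10 and MYBL2 -0.031, none called. Depth limits LIN37 most, with 9 to 38 counts per library.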
